A study of Caenorhabditis elegans with 2 samples.

Results

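Regions strong in only 1 replicate were the regions of a chromatin immunoprecipitation sequencing (ChIP-seq) experiment that ranked among the strongest in 1 replicate and had no summit of such a rank within 100 bp in the other replicate. As many regions were taken as strong in each replicate as the authors' list for both replicates holds, and the last rank taken is called the rank line here. They were taken from the relaxed region list of each replicate, which holds background calls as well as peaks, ranked by the authors' deposited signal. There were 967 such regions in replicate 1 and 968 in replicate 2, together 1935 of the 58886 regions in both lists, and the 2 directions are kept apart here. The remaining 1286 strong regions of replicate 1 and 1285 of replicate 2 had a strong summit within 100 bp in the other replicate and are called shared. The members were chosen by the signals of both replicates, so signals and ranks are given as descriptions, with no test.

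The experiment mapped FKH-10, a forkhead protein, in whole L4 larvae of the nematode Caenorhabditis elegans, with both sexes pooled. The single group was strain OP337, which carries the unc-119 mutation ed3 and the insertion wgIs377, in which fkh-10 bears TY1, EGFP and FLAG tags beside a further unc-119 gene. It had 2 biological replicates, each 1 library of fragments of 150 to 350 bp. A whole-animal sample mixes tissues, and 0 members of either direction lay within 20 kb of fkh-10 or of unc-119.

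Forkhead proteins bind DNA through a winged-helix domain, and in the nematode they act in the development and physiology of several tissues. ChIP-seq signal often gathers at promoters of highly transcribed genes. Transfer RNA (tRNA) genes are read by RNA polymerase III from a promoter inside the gene, which includes a B box, whereas histone and ribosomal protein genes are read by RNA polymerase II. Each direction rests on 1 library, so no p-value could be had for a difference between the directions. Shares below carry 95% Wilson intervals and differences of shares carry 95% Newcombe intervals. These cover counting error over regions only, not the spread between libraries.

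The sequences below show, on the chromosomes from which sequence is shown, the strongest member of each direction, a member with nothing nearby in the other replicate, and the strongest tRNA, histone and ribosomal protein members. Stronger members on a chromosome not shown are left out, so the rpl-21 window is the weakest of the replicate 1 members at ribosomal protein genes. They are from the RefSeq genome WBcel235, the sequence of ce11, and read 5′ to 3′ on the strand given. In the tRNA windows capitals mark the tRNA genes. In the ndub-8 window they mark the bases around the summit, and this window was added after its values had been seen. In the other windows they mark the stretch from the summit of 1 replicate to the strongest nearby summit of the other, so the capitals show how far apart these lay.
drap-1 promoter, replicate 1 only (chrV:9731032-9731251, plus strand): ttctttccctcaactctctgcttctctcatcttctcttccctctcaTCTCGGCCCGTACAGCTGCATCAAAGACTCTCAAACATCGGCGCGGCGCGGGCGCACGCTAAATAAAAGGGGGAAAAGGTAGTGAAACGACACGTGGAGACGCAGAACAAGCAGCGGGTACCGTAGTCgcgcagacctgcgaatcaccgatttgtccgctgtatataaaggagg
Y41G9A.17 intron, replicate 2 only (chrX:2996975-2997194, plus strand): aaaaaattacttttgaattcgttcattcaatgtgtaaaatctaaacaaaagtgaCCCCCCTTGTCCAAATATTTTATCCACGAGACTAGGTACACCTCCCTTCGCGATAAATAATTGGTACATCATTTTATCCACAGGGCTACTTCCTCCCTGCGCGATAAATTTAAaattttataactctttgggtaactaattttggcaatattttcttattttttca
ndub-8 and cup-14 promoters, replicate 2 only (chrII:13872582-13872801, minus strand): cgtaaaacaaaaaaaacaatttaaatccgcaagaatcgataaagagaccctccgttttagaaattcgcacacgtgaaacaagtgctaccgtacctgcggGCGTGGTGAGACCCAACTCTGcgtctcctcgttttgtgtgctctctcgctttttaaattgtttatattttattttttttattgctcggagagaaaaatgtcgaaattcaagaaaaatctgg
W09D6.t2 and W09D6.t1, replicate 1 only (chrIII:11066823-11067122, plus strand): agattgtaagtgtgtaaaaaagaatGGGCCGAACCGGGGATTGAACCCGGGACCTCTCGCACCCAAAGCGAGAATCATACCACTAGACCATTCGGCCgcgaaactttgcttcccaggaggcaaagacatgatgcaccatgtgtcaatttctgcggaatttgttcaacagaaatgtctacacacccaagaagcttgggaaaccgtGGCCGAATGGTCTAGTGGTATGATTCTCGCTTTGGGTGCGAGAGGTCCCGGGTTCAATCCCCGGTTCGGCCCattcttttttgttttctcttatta
C18A11.t2, replicate 2 only (chrX:8036502-8036801, minus strand): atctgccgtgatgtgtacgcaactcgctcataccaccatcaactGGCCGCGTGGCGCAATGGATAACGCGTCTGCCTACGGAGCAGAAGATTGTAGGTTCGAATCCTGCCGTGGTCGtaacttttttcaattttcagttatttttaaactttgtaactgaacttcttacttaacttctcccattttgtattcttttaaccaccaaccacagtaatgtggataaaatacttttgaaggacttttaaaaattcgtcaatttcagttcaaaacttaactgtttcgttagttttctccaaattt
his-35 and his-41 promoters, replicate 1 only (chrV:9545338-9545535, minus strand): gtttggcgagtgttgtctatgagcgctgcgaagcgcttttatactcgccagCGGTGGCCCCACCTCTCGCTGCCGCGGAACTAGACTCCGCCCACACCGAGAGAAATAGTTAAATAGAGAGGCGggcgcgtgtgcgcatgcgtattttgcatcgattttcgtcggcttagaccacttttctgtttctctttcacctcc
rpl-21 promoter, replicate 1 only (chrIII:8130510-8130729, minus strand): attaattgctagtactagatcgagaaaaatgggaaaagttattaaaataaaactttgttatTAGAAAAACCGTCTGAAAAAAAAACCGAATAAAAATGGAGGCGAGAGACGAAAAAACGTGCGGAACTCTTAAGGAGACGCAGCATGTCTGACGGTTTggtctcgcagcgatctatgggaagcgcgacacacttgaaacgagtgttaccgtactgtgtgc
rpl-33 promoter, replicate 2 only (chrII:7105115-7105334, plus strand): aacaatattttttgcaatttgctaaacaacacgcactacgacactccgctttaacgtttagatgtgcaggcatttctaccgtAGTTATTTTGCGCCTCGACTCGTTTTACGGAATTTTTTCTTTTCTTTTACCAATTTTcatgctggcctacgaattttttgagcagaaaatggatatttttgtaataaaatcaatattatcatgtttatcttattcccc

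The chance of being unpartnered depended on rank in a like way in both replicates. Among the 100 strongest regions, 7 had no strong partner in replicate 1 and 7 in replicate 2. At ranks 1001 to 1500 the shares were 50.4% in replicate 1 and 47.4% in replicate 2. From rank 2001 to the rank line they were 72.7% in replicate 1 and 71.9% in replicate 2. The median rank of the members in their own list was 1510 for replicate 1 only and 1524.5 for replicate 2 only. Most members thus lay in the lower ranks. The signal at the rank line was 18.8 in replicate 1 and 24.0 in replicate 2. The median over the whole relaxed list was 9.08 in replicate 1 and 8.51 in replicate 2. Signal sizes were thus not directly comparable between the lists, and ranks are given beside them.

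**Figure D1:**
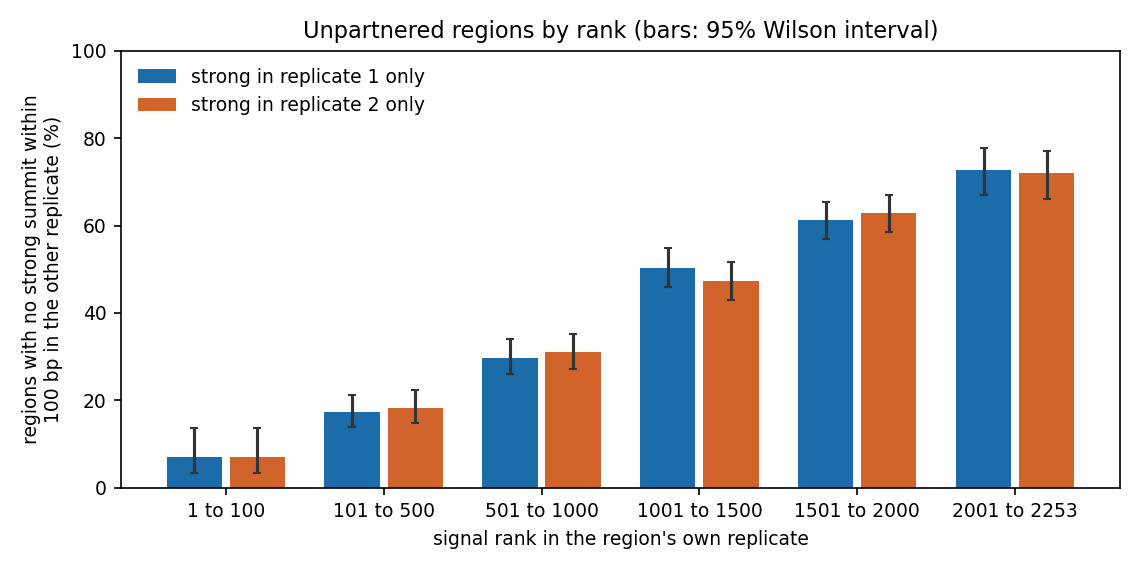
Share of strong regions with no strong summit within 100 bp in the other replicate (vertical axis, %), by the region's signal rank in its own replicate (horizontal axis); bars are replicate 1 (blue) and replicate 2 (orange), with 95% Wilson intervals. The share is 7.0% among the 100 strongest regions of each replicate and climbs to 72.7% in replicate 1 and 71.9% in replicate 2 in the last bin.

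The rank line runs through closely spaced values. The member X_11798239, in the promoter of rsd-3, had a signal of 25.6 in replicate 1 (rank 1211) and lay 20 bp from a summit of signal 23.9 in replicate 2, which missed the line at rank 2261. The region V_810527, in the promoter of R13D11.4, had 31.5 in replicate 1 (rank 740) and was partnered by a summit of 24.0 at rank 2249 in replicate 2. On the other side, the member III_13636192 had 25.1 in replicate 2 (rank 2098) and 18.8 in replicate 1 (rank 2261), and the partnered region I_4784805, in an intron of M04F3.5, had 44.0 in replicate 2 (rank 579) and 18.8 in replicate 1 (rank 2252).

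Most members had something in the other list. The classes here exclude one another, and an overlapping strong region was counted first. In the largest class, with no overlapping strong region, a weaker region had its summit within 100 bp. It held 496 of the 967 regions strong in replicate 1 only (51.3%) and 503 of the 968 strong in replicate 2 only (52.0%). Counting members with an overlapping strong region too, 546 of replicate 1 (56.5%) and 548 of replicate 2 (56.6%) had such a weaker summit. A strong region of the other replicate overlapped 202 members of replicate 1 (20.9%) and 186 of replicate 2 (19.2%), but with its summit over 100 bp away. A weaker overlapping region with a distant summit was found for 153 members (15.8%) of replicate 1 and 161 (16.6%) of replicate 2. No region of the other list overlapped 116 members (12%) of replicate 1 and 118 (12.2%) of replicate 2. The make-up of the 2 directions by these classes differed by less than their intervals.

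**Figure D2:**
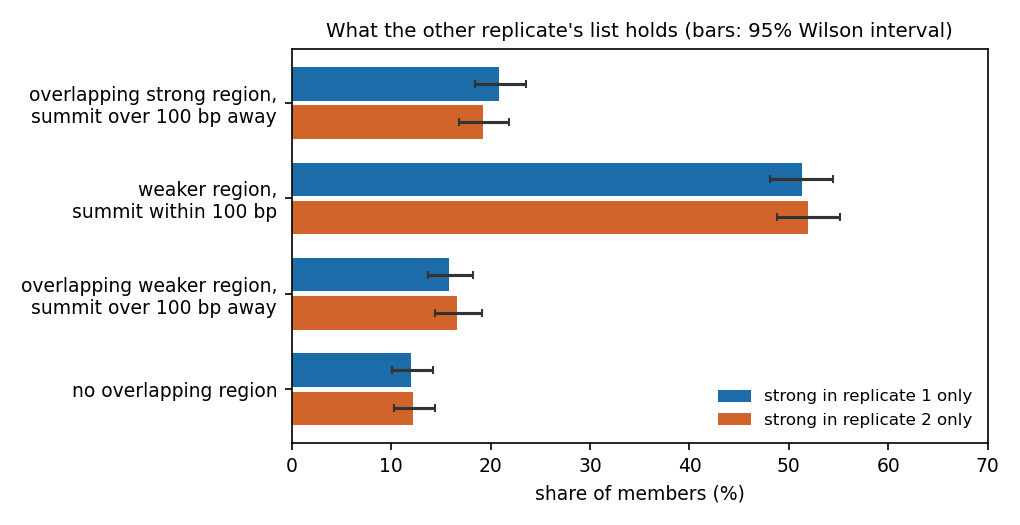
Members in each class of what the other replicate's relaxed list holds at the same place (horizontal axis, % of members, with 95% Wilson intervals), for regions strong in replicate 1 only (blue, upper bar) and replicate 2 only (orange, lower bar). The classes exclude one another, and an overlapping strong region takes precedence. A weaker region at the same summit is the most frequent class in both directions, at 51.3% of replicate 1 members and 52.0% of replicate 2 members.

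The weaker partners ranked higher in replicate 2 than in replicate 1. Where any relaxed summit lay within 100 bp, the members of replicate 1 had a partner of median rank 3711.5 in replicate 2 (546 members), and the members of replicate 2 had a partner of median rank 5221 in replicate 1 (548 members). Partners beyond rank 10000 numbered 90 (9.31%) for replicate 1 only and 161 (16.6%) for replicate 2 only. The authors' list thresholded on the irreproducible discovery rate (IDR), a measure of replicate agreement, held a summit within 100 bp of 359 members of replicate 1 (37.1%) and 519 members of replicate 2 (53.6%). The relaxed list of the pooled replicates held one for 841 (87.0%) of replicate 1 and 895 (92.5%) of replicate 2. Both comparisons with the authors' lists use the same libraries and are descriptions. No share over the shared regions is given beside them, so they are not read as high or low.

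Of the 10 strongest members in each direction, 7 in replicate 1 and 7 in replicate 2 overlapped a strong region of the other replicate whose summit was over 100 bp away. Of the 100 strongest, 49 in replicate 1 and 37 in replicate 2 did so. With no overlapping strong region, 35 in replicate 1 and 44 in replicate 2 had a weaker region at the same summit. In the promoter of drap-1, which encodes a subunit of the NC2 repressor of transcription, replicate 1 had a summit of signal 63.6 (rank 44) and replicate 2 had its strong summit 127 bp away with 36.5 (rank 1003) and a weaker one at 84 bp with 23.6 (rank 2302). In an intron of ast-1, an ETS-domain factor of dopaminergic neurons, replicate 1 had 53.9 (rank 99), and replicate 2 had 36.0 (rank 1032) at 201 bp and a weaker summit of 22.6 (rank 2448) at 2 bp. At sls-2.2, a spliced leader RNA gene, the replicate 1 member had 51.1 (rank 132), and replicate 2 had 79.4 (rank 46) at 108 bp and 16.6 (rank 3951) at 93 bp. The strongest replicate 1 region at this gene was another one, at 77.9 (rank 20), and was shared with that replicate 2 summit of 79.4. In the intron of Y41G9A.17 shown above, the replicate 2 member had 117 (rank 7) and replicate 1 had 72.4 (rank 26) at 112 bp. That replicate 1 region was shared, with another, weaker summit of replicate 2 as its partner. The intergenic member X_13700770 had 94.5 in replicate 2 (rank 25) and lay 119 bp from a replicate 1 summit of 109 (rank 3). This replicate 1 region too was shared, with another, weaker summit of replicate 2. In all 5 of these places the member lay 108 to 201 bp from a strong summit of the other replicate. In 3 of them replicate 2 also had a summit below the rank line within 100 bp. At sls-2.2, Y41G9A.17 and X_13700770 the member was thus a further strong summit beside a shared one.

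A few strong members had no counterpart. The divergent promoter of ndub-8, a subunit of mitochondrial complex I, and cup-14 had a signal of 81.4 in replicate 2 (rank 43). Replicate 1 had no relaxed region within 1000 bp of it, and its nearest relaxed summit lay 3109 bp away. It was the highest of 49 members of replicate 2 with nothing in replicate 1 within that distance, whose signals ran from 24.3 to 81.4. The 53 such members of replicate 1 ran from 18.9 to 28.2.

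Some of the strongest members lay in dense runs, stretches of at least 30 kb in which the regions of 1 list follow each other at gaps of at most 2000 bp. Runs held 76 members of replicate 1 (7.86%) and 37 of replicate 2 (3.82%), again with no share over the shared regions given beside them. The largest, on chromosome I from 14720183 to 14755838, held 48 members of replicate 1, with signals of 19.7 to 78.6, and 28 members of replicate 2, from 14719558 to 14756751, with signals of 25 to 78.5. It covers pbs-5, a proteasome subunit gene, sol-2, hmp-2, a beta-catenin gene, and several K05C4 genes. Within K05C4.5 there were 8 members of replicate 1 and 4 of replicate 2, and within K05C4.9 there were 7 of replicate 1 and 3 of replicate 2. Another run, on chromosome X, held 17 members of replicate 1 and 9 of replicate 2, and of these 5 of replicate 1 and 1 of replicate 2 were within ace-1, an acetylcholinesterase gene. Of the 10 strongest members, 6 in replicate 1 and 4 in replicate 2 were in runs. Members of both directions alternated within these stretches and cannot be counted as separate sites.

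The directions differed in location. Promoters, from 1000 bp upstream to 200 bp downstream of a protein-coding transcript start, held 412 members of replicate 1 (42.6%, 39.5 to 45.7) and 451 of replicate 2 (46.6%, 43.5 to 49.7), against 49.6% of the shared regions in the replicate 1 list and 49.4% in the replicate 2 list. The difference between the directions was -3.98 points (-8.39 to 0.44). Members minus shared regions gave -7.01 points for replicate 1 (-11.1 to -2.85) and -2.83 points for replicate 2 (-6.97 to 1.34). Members tended to rank lower than shared regions, and the part of rank in this and later differences from shared regions was not tested. Promoter windows of 2 or more genes held 9.41% of replicate 1 members and 13.5% of replicate 2 members, a difference of -4.12 points (-6.97 to -1.28).

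Exons outside promoters held 75 members of replicate 1 (7.76%, 6.23 to 9.61) and 23 of replicate 2 (2.38%, 1.59 to 3.54), a difference of 5.38 points (3.46 to 7.40). Shared regions were in exons in 1.56% of cases in the replicate 1 list and 1.48% in the replicate 2 list. Replicate 1 members exceeded their shared regions by 6.20 points (4.46 to 8.14), and replicate 2 members by 0.90 points (-0.24 to 2.18). The dense runs supplied 28 of the 75 exonic members of replicate 1, 20 of them in the run on chromosome I. Without the runs the shares were 5.27% for replicate 1 and 1.72% for replicate 2, 3.56 points apart. The regions ranked below the rank line differed in the same direction, with 20.3% in exons in replicate 1 and 12.4% in replicate 2, and the part this has in the difference between members was not tested.

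Within 200 bp of a noncoding gene and outside promoters lay 142 members of replicate 1 (14.7%, 12.6 to 17.1) and 102 of replicate 2 (10.5%, 8.76 to 12.6), 4.15 points apart (1.19 to 7.11), with shared regions at 10.3% in the replicate 1 list and 10.4% in the replicate 2 list. Among members with no relaxed summit at all within 100 bp in the other list, the order turned round, at 10.2% for replicate 1 and 11.4% for replicate 2 (-1.21 points, -5.46 to 3.02). With 2 times as many strong regions per replicate the difference was 0.46 points (-1.17 to 2.09). Intergenic positions held 18.7% of replicate 1 members and 23.3% of replicate 2 members, -4.63 points apart (-8.25 to -0.997). Introns held 16.2% of replicate 1 members and 17.1% of replicate 2 members, -0.91 points apart (-4.24 to 2.41). Chromosome X held 24.1% of replicate 1 members and 20.8% of replicate 2 members, and the interval of this difference (-0.39 to 7.04 points) included 0. Shared regions on chromosome X made up 24.3% of the replicate 1 list and 24.4% of the replicate 2 list.

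**Figure D3:**
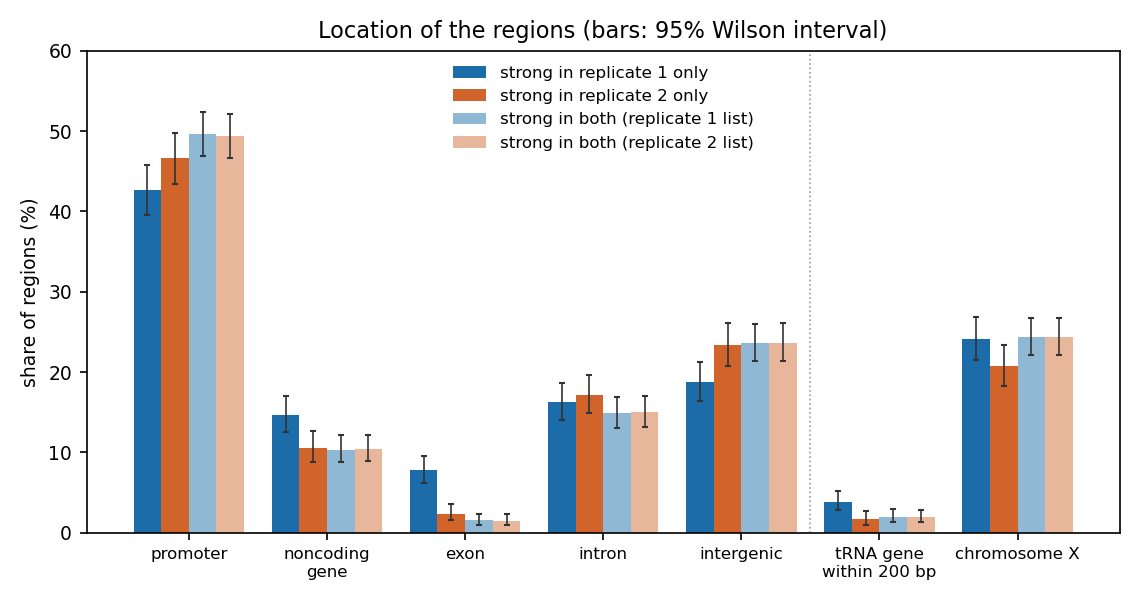
Share of regions (vertical axis, %) in each of 5 exclusive locations, and, right of the dotted line, near a tRNA gene or on chromosome X, for members of replicate 1 (blue) and replicate 2 (orange) and for shared regions of each list (pale); error bars are 95% Wilson intervals. Exons hold 7.76% of replicate 1 members, against 2.38% of replicate 2 members, 1.56% of shared regions of the replicate 1 list and 1.48% of those of the replicate 2 list.

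tRNA genes were near more members of replicate 1. A tRNA gene lay within 200 bp of 37 members of replicate 1 (3.83%, 2.79 to 5.23) and 16 of replicate 2 (1.65%, 1.02 to 2.67), 2.17 points apart (0.72 to 3.71). Shared regions stood at 2.02% in the replicate 1 list and 1.95% in the replicate 2 list. By gene, 41 of the 315 tRNA genes with a relaxed region had a member of replicate 1 (13.0%, 9.74 to 17.2), where the background over all 3723 noncoding genes with a relaxed region was 8.43%. Members of replicate 2 were at 17 tRNA genes (5.40%, 3.4 to 8.47), against a background of 5.94%. The replicate 1 share was above its background and the replicate 2 share was close to its own.

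The strongest of them stood over the paired proline tRNA genes W09D6.t1 and W09D6.t2, which lie on opposite strands, as the capitals in their window show. There the signal was 47.4 in replicate 1 (rank 172) and 14.7 in replicate 2 (rank 4787), with the summits 5 bp apart. F46G11.t1 and F46G11.t2, another proline pair, had 40.0 in replicate 1 (rank 351), and the summit 88 bp away in replicate 2 had 20.1 (rank 2940). The serine tRNA gene K11H3.t2 had 30.9 in replicate 1 (rank 777) and 10.1 in replicate 2 (rank 10136). These genes were strong in replicate 1 and well outside the strong ranks in replicate 2. The glycine gene T22A3.t1 was a nearer miss, with 41.0 in replicate 1 (rank 314) and 22.7 in replicate 2 (rank 2436). The aspartate gene T14F9.t1 had 33.0 in replicate 1 (rank 646) and 17.0 in replicate 2 (rank 3809). The arginine gene F09B9.t1 had 31.5 in replicate 1 (rank 733) and 16.2 in replicate 2 (rank 4093).

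Among members of replicate 2, the lysine and threonine genes W09G10.t2 and W09G10.t3 shared a region of signal 34.7 in replicate 2 (rank 1105) and 15.5 in replicate 1 (rank 3530). The lysine gene B0350.t1 had 33.4 in replicate 2 (rank 1214) and 17.6 in replicate 1 (rank 2612). The asparagine gene F41D9.t3 had 31.9 in replicate 2 (rank 1342) and 16.2 in replicate 1 (rank 3127). The cysteine gene C37A2.t1 had 31.7 in replicate 2 (rank 1353) and 10.1 in replicate 1 (rank 11626). All 5 of these genes were outside the strong ranks in replicate 1. The strongest region, at 55.4 in replicate 2 (rank 265), covered part of the arginine gene C18A11.t2 shown above with its summit beside the gene, and a strong replicate 1 summit of 47.7 (rank 168) stood 185 bp from it. That replicate 1 summit was not within 200 bp of C18A11.t2, whose strongest replicate 1 region had 6.99 (rank 25868). The leucine gene C04A11.t1 was itself strong in both, with 35.3 in replicate 2 (rank 1074) and 29.5 in replicate 1 (rank 875) at 135 bp. It had members of both directions.

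By gene rather than by region, 39 tRNA genes had their strongest region above the rank line in replicate 1 and not in replicate 2, with signals of 19.3 to 47.4 in replicate 1; 33 of them had a relaxed region in replicate 2, at 7.44 to 23.9, and 6 had none. In the other direction 14 genes had 24.6 to 55.4 in replicate 2 and 6.77 to 17.6 in replicate 1. The 39 genes made 12.4% of the 315, against a background of 6.85% of noncoding genes, and the 14 genes made 4.44%, against 4.35%. A further 31 tRNA genes were strong in both replicates and 231 in neither.

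By amino acid, 7 of the 23 proline tRNA genes with a relaxed region had a member of replicate 1 and 0 had one of replicate 2, where the shares over all tRNA genes were 13.0% for replicate 1 and 5.40% for replicate 2. Neighbouring genes can share a member, as both proline pairs above do, so these are counts of genes and not of regions. Of 15 valine genes 5 had a member of replicate 1 and 0 of replicate 2, and of 18 alanine genes 4 had one of replicate 1 and 0 of replicate 2. Of 26 glutamate genes 3 had one of replicate 1 and 0 of replicate 2. Of 9 cysteine genes 0 had one of replicate 1 and 2 of replicate 2, and of 20 lysine genes 2 had one of replicate 1 and 3 of replicate 2. These amino acids were chosen after their counts were seen. Most tRNA genes have an identical copy elsewhere in the genome, which held for 34 of the 41 genes of replicate 1, 14 of the 17 of replicate 2, and 80.3% of all 315. How the authors placed reads from identical copies is not given in the sources used here, so values at these genes are uncertain.

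The tRNA difference was present with fewer strong regions and not with more. With 0.5 times as many strong regions 20 members of replicate 1 and 7 of replicate 2 were near a tRNA gene, 2.71 points apart (0.61 to 5.03). With 2 times as many the counts were 38 for replicate 1 and 37 for replicate 2. In 29 of the 37 tRNA members of replicate 1 the other replicate had a weaker region at the same summit and no overlapping strong region. This held for 8 of the 16 of replicate 2. Among members with no relaxed summit in the other list, 6 of replicate 1 and 6 of replicate 2 were near a tRNA gene. Where both replicates were strong, the median log2 ratio of replicate 1 to replicate 2 signal was -0.14 over 26 regions near tRNA genes (SD 0.40) and -0.37 over all 1286 shared regions (SD 0.46).

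Histone genes gave members of replicate 1 alone. Of the 82 annotated histone genes, 23 had a relaxed region in the promoter window, and 4 of these had a member of replicate 1 (17.4%, 6.98 to 37.1), against 4.47% of all 11108 protein-coding genes with a relaxed region. Members of replicate 2 were at 0 of the 23, for which the interval reached 14.3%, against a background of 5.22%. The 4 genes had 4 regions between them. The divergent pair his-35 and his-41, an H2A and an H2B gene, shared a region of signal 23.2 in replicate 1 (rank 1502) and 19.0 in replicate 2 (rank 3180). The promoter of his-72, a gene for the replacement variant of H3, had 22.9 in replicate 1 (rank 1543) and 13.3 in replicate 2 (rank 5761), and a further member of 21 lay in the same promoter. The linker histone gene his-24 had 18.9 in replicate 1 (rank 2248) and 19.0 in replicate 2 (rank 3194). All 4 genes thus had a relaxed region in replicate 2, at 13.3 to 19.0. The histone genes strong in both were his-37, with 55.8 in replicate 1 and 88.6 in replicate 2, and htz-1, the H2A.Z variant gene, with 53.2 in replicate 1 and 51.8 in replicate 2. With 0.5 times as many strong regions there were 0 histone genes with a member in either direction, and with 2 times as many there were 2 in each.

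Ribosomal protein genes went the other way. Of 78 with a relaxed region, 5 had a member of replicate 1 (6.41%, 2.77 to 14.1) and 21 a member of replicate 2 (26.9%, 18.3 to 37.7). The background over protein-coding genes was 4.47% for replicate 1 and 5.22% for replicate 2, so the replicate 1 share was near its background and the replicate 2 share above its own. Large-subunit genes made up all 5 with a member of replicate 1 and 12 of the 21 with a member of replicate 2. Small-subunit genes made up 0 for replicate 1 and 9 for replicate 2. By each gene's strongest region, 3 genes were strong in replicate 1 and not in replicate 2 (3.85%, background 3.52%), and 20 were strong in replicate 2 and not in replicate 1 (25.6%, background 4.38%). A further 40 were strong in both and 15 in neither. Over all 11108 protein-coding genes with a relaxed region, 895 were strong in both and 9335 in neither. Of the rest, 391 were strong in replicate 1 alone and 487 in replicate 2 alone. Ribosomal protein promoters were thus strong more often than the background genes. The backgrounds above are not limited to strong genes, and the part this has in the replicate 2 share was not tested.

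In the promoter of rpl-33 the signal was 57.4 in replicate 2 (rank 227) and 14.3 in replicate 1 (rank 4376), with the summits 56 bp apart, as its window shows. For rpl-28, whose promoter is shared with mrpl-49, it was 55.4 in replicate 2 (rank 261) and 16.3 in replicate 1 (rank 3077). For rpl-23 it was 52.5 in replicate 2 (rank 325) and 7.73 in replicate 1 (rank 21401). This was the lowest replicate 1 value among the 20 genes strong in replicate 2 alone. The promoter of rpl-29 had 52.0 in replicate 2 (rank 333) and 15.8 in replicate 1 (rank 3351). The promoter of rps-29 had 51.8 in replicate 2 (rank 341) and 18.5 in replicate 1 (rank 2354), just below the line. A single region of 52.6 in replicate 2 (rank 321) served rpl-24.1 and rps-10, and replicate 1 had no summit within 100 bp of it, its strongest within 1000 bp being 17.5 (rank 2632). All 20 genes had a relaxed region in replicate 1, at 7.73 to 18.5, and their signals in replicate 2 ran from 24.2 to 57.4 with a median of 36.3.

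The members of replicate 1 at these genes were weaker or displaced. The promoter of rpl-7 had 40.9 in replicate 1 (rank 319) and 18.0 in replicate 2 (rank 3469), with the summits 110 bp apart. The promoter of rla-0, a ribosomal stalk protein gene, had 23.7 in replicate 1 (rank 1443) and 11.8 in replicate 2 (rank 7337) at 101 bp. The promoter of rpl-21 had 19.4 in replicate 1 (rank 2124) and 19.3 in replicate 2 (rank 3111), near the line in both. At rpl-1 and rpl-30 replicate 2 was also strong, with 33.9 (rank 1172) at 175 bp and 26.9 (rank 1849) at 184 bp from the replicate 1 members of 22.5 and 21.9. The gene rpl-1 had members of both directions.

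With summits matched within 200 bp the counts were 3 genes for replicate 1 and 20 for replicate 2. With 2 times as many strong regions they were 10 for replicate 1 and 21 for replicate 2, and with 0.5 times as many they were 2 for replicate 1 and 13 for replicate 2. With no relaxed summit in the other list the counts were 4 for replicate 1 and 5 for replicate 2. At 38 shared regions in ribosomal protein promoters the median log2 ratio of replicate 1 to replicate 2 signal was -0.50 (SD 0.40), against -0.37 over all shared regions.

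**Figure D4:**
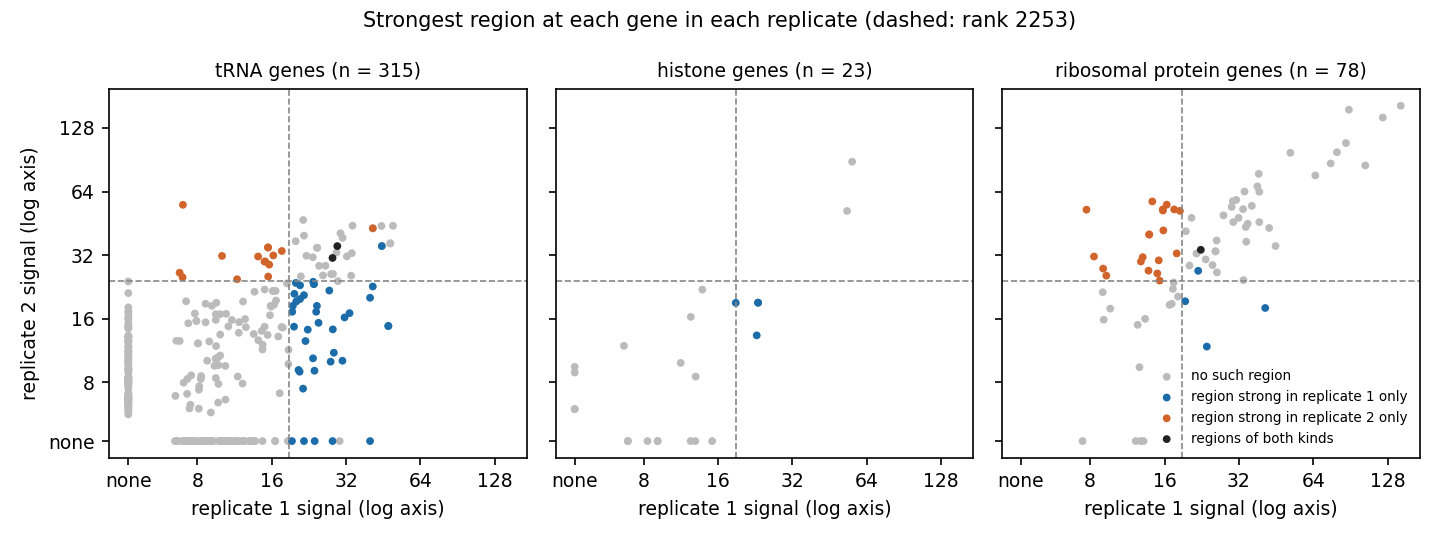
Signal of the strongest region at each tRNA, histone and ribosomal protein gene in replicate 1 (horizontal, log axis) and replicate 2 (vertical, log axis); "none" marks genes with no relaxed region in that replicate, dashed lines mark the signal at the rank line, and colours mark genes with a member of replicate 1 (blue), replicate 2 (orange) or both (black). A member of replicate 1 was at 41 of 315 tRNA genes (13.0%), 4 of 23 histone genes (17.4%) and 5 of 78 ribosomal protein genes (6.41%). A member of replicate 2 was at 17 (5.40%), 0 and 21 (26.9%) of them, in the same order. Backgrounds for replicates 1 and 2 are 8.43% and 5.94% of noncoding genes and 4.47% and 5.22% of protein-coding genes. Genes drawn black count in both directions.

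Other gene groups were examined in the same way. Small nucleolar RNA (snoRNA) genes, which guide RNA modification, with a member numbered 16 for replicate 1 (10.3%) and 5 for replicate 2 (3.23%) among 155, against noncoding backgrounds of 8.43% for replicate 1 and 5.94% for replicate 2. The lists of protein-coding genes are set against 4.47% for replicate 1 and 5.22% for replicate 2. Of 43 chaperone genes, 3 had a member of replicate 1 and 8 one of replicate 2. Of 35 translation factor genes, 3 had one of replicate 1 and 6 one of replicate 2, and of 52 mitochondrial ribosomal protein genes, 4 had one of replicate 1 and 5 one of replicate 2. Of 29 respiration genes, taken by symbols that begin with nuo, cox, cyc, atp, isp or sdh, 4 had one of replicate 1 and 1 had one of replicate 2. This list leaves out ndub-8, which had a member of replicate 2, and any other respiration genes with symbols of that kind. The other lists had few. Aminoacyl-tRNA synthetase genes had 1 of each direction among 24, and microRNA genes 3 of replicate 1 and 4 of replicate 2 among 75. Genes with the symbols col, dpy, rol, sqt or bli had 1 of replicate 1 and 2 of replicate 2 among 88. These genes were taken by symbol alone and include dpy-27, so they are not all collagen genes. The initiation factor genes eif-2Bbeta, eif-2gamma and eif-6 had 34.2, 26.5 and 29.5 in replicate 2 and no relaxed region in replicate 1. The chaperone gene hsp-70 had 36 in replicate 2 and none in replicate 1. The respiration genes atp-3, cox-4, cox-6C and cox-7C were members of replicate 1, and each had a relaxed region in replicate 2 at 13.9 to 23.7. These genes of other groups were chosen after their values were seen.

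The base composition of the members also differed. Over 201 bp around the summit the GC content was 42.6% ± 7.39 (SD, 967 regions) for replicate 1 only and 40.1% ± 7.03 (SD, 968 regions) for replicate 2 only, 2.49 points apart (1.84 to 3.13). The shared regions averaged 43.6% in the replicate 1 list and 43.5% in the replicate 2 list. The regions below the rank line averaged 37.1% in replicate 1 and 34.2% in replicate 2, so the lists as a whole differed in the same direction, and the part of this in the members was not tested. Without a region in the other list, the members of replicate 1 averaged 41.3% (116 regions) and those of replicate 2 averaged 37.5% (118 regions).

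Motifs were sought on both strands in the same windows. GAGAGAG was in 14.9% of replicate 1 members and 16.7% of replicate 2 members, against 22.6% of shared regions in the replicate 1 list and 23% in the replicate 2 list. Below the rank line it was in 4.23% of replicate 1 regions and 4.33% of replicate 2 regions, so members stood between the shared and the weaker regions. Members minus shared regions gave -7.74 points in replicate 1 (-10.9 to -4.49) and -6.22 points in replicate 2 (-9.47 to -2.89), and the part of the lower ranks of members in this was not tested. TGATAA, which factors of the GATA type can bind, was in 10.2% of replicate 1 members and 8.37% of replicate 2 members, against 5.60% of shared and 15.8% of weaker regions in the replicate 1 list and 5.91% of shared and 16.4% of weaker regions in the replicate 2 list. The B-box consensus was in 12 members of replicate 1 (1.24%) and 2 of replicate 2 (0.207%), 1.03 points apart (0.28 to 1.96). It was in 0.700% of shared and 0.339% of weaker regions in the replicate 1 list. In the replicate 2 list it was in 0.778% of shared and 0.394% of weaker regions. With 50 bp on either side of the summit the B-box counts were 5 and 1, 0.41 points apart (-0.15 to 1.11). The interval also included 0 with 0.5 times (-0.41 to 2.69) and 2 times (-0.28 to 0.71) as many strong regions. The forkhead-type sequence GTAAACA was in 2.48% of replicate 1 members and 4.24% of replicate 2 members (-1.75 points, -3.42 to -0.14), against 3.42% of shared and 2.44% of weaker regions in the replicate 1 list and 3.42% of shared and 2.68% of weaker regions in the replicate 2 list. TAATTA, a homeodomain-type core, was in 5.38% of replicate 1 members and 6.10% of replicate 2 members, against 3.73% of shared and 8.50% of weaker regions in the replicate 1 list and 3.04% of shared and 10.4% of weaker regions in the replicate 2 list. CCCGCCC was in 3.21% of replicate 1 members and 2.07% of replicate 2 members (1.14 points, -0.31 to 2.64). It was in 2.10% of shared and 1.04% of weaker regions in the replicate 1 list. In the replicate 2 list it was in 2.02% of shared and 0.972% of weaker regions. A match of this kind describes the letters and is not a binding site.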

How the data were processed

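The relaxed region lists on ce11, 1 per biological replicate, were used; the IDR-thresholded and pooled lists described members, and the ce10 lists gave 1 alternative. The deposited lists have no header line. Regions were ranked by the column read as the authors' signal, and the column read as −log10 of a q-value was not used. The scale of the signal, the aligner and the caller remain not given in the sources used here, and per the deposited file descriptions both lists derive from their own alignment and the same control. Reads were not analysed here, so depth is unknown, and no region (0) was identical in position and signal between the replicates. Members and lists were chosen with earlier results of these data known.

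The regions strong in each list were the 2253 of highest signal; members had no strong summit of the other replicate within 100 bp. Locations used Ensembl release 115 (19973 protein-coding genes), in the order promoter, noncoding gene within 200 bp, exon, intron, intergenic; a gene had a member if a member's summit lay in its promoter or, for noncoding genes, within 200 bp. tRNA names and amino acids came from RefSeq. Named were, per direction, the 10 strongest members, the 5 strongest with no relaxed summit in the other list, up to 6 tRNA, histone and ribosomal protein members each, and regions beside the rank line; chemoreceptor genes are not named. Intervals are 95% Wilson and Newcombe. Python 3.11.15, pandas 2.3.3, numpy 2.4.6, scipy 1.17.1 and matplotlib 3.10.9 were used, and the steps were tested on simulated data. Alternatives changed the summit distance, the number of strong regions, the location windows, the dense runs, the merging of sites and the build.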

Additional observations from a re-analysis of the deposited data

How the results depend on the processing

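No paired analysis was possible because the labels give a single group. Leaving out a replicate was not run, since membership needs both. Of 150 values over 15 results and 13 settings, 119 were within 1.5 times the reported count or inside the reported interval of the difference, which is wide for chromosome X, promoters and GAGAGAG. Differences are replicate 1 only minus replicate 2 only, in percentage points, and the causes were not tested. With 0.5 times as many strong regions there were 479 members of replicate 1 and 479 of replicate 2; the intergenic difference was -0.42, chromosome X 8.56 and GC content 3.47; histone genes of replicate 1 numbered 0, and ribosomal protein genes 2 in replicate 1 and 13 in replicate 2. With 2 times as many there were 2407 members of replicate 1 and 2408 of replicate 2; the promoter difference was -9.12, noncoding 0.46, exon 12.2, tRNA 0.042 and B-box matches 0.21; histone genes numbered 2 in replicate 1 and 2 in replicate 2, and ribosomal protein genes of replicate 1 10. With no summit in the whole relaxed list of the other replicate there were 421 members of replicate 1 and 420 of replicate 2; the noncoding difference turned to -1.21 and the tRNA difference to -0.0034, exon was 8.07 and chromosome X -1.48; histone genes of replicate 1 numbered 1 and ribosomal protein genes of replicate 2 5. Ribosomal protein genes of replicate 1 numbered 13 with summits matched within 50 bp, 3 within 200 bp and 3 by overlap of 1 bp. The GC difference was 1.80 with summits within 50 bp, and the exon difference 3.31 with promoters of 2000 bp up and 500 bp down. Precision per region is unknown without read depth.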

Other observations

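MicroRNA genes of the mir-51 family were members in opposite directions. cel-mir-52 had a region of signal 23.3 in replicate 1 and no relaxed region in replicate 2. cel-mir-53 had 30.9 in replicate 2 and 6.59 in replicate 1, and cel-mir-56 had 32.7 in replicate 2 and 8.27 in replicate 1. Among snoRNA genes, F55H12.9 had 21.4 in replicate 1 and 6.19 in replicate 2, and W06A7.12 had 31.6 in replicate 2 with no relaxed region in replicate 1. The spliced leader RNA gene sls-2.8 had 40.3 in replicate 2 and 12 in replicate 1. These genes were chosen after their values were seen.

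Several long genes outside the dense runs held 3 or more members. ercc-1 held 5 of replicate 1 and 3 of replicate 2, let-526 held 4 of replicate 1 and 2 of replicate 2, and gcy-28 held 3 of replicate 1 and 3 of replicate 2. ZK1073.2 and cab-1 each held 0 members of replicate 1 and 3 of replicate 2. None of the members in these 5 genes was classed as exonic, a class that leaves out promoter windows and positions near noncoding genes. These genes too were chosen after their counts were seen.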
